A study of Mus musculus with 28 samples.

Results

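Complex I, the NADH dehydrogenase that starts the respiratory chain, is described here through its nuclear genes in mouse regulatory T (Treg) cells. The genes were taken by name: every gene whose symbol starts with Nduf, with pseudogenes left out and a mean of at least 1 CPM (counts scaled to the library total) in a count table. The tables list 43430 gene IDs, and 50 of them carry an Nduf symbol. Of these, 4 were pseudogenes (Ndufa11b, Ndufab1-ps, Ndufb4c and Ndufs6b) and 1, Ndufa4l2, a paralog of Ndufa4 known from hypoxic cells, stayed below the minimum. The member nearest the minimum was Ndufaf6, with a mean of 4.55 CPM in the chimeras, and the highest gene left out was Ndufs6b, with 0.315 CPM in vitro. Values per library below are also scaled by TMM factors, which correct for library composition. The remaining 45 genes were members in all 3 tables. Ndufa4l2 had 1 to 2 counts in 4 of the 28 libraries and none in the others.

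All cells were sorted as CD4+ YFP-Foxp3+ CD25+ and came from C57BL/6NJ mice. RISP, the Rieske iron-sulfur protein of complex III encoded by Uqcrfs1, was wild type or knocked out in mice aged 3 weeks (RISP_WT and RISP_KO) and in chimeras aged 8 to 12 weeks (RISP_Chimera_WT and RISP_Chimera_KO), with 4 libraries in each group. RISP wild-type cells of mice aged 3 weeks were also held in vitro untreated, with 1 µM piericidin, a quinone-site inhibitor of complex I, with 500 µM 3-NPA (3-nitropropionic acid, an inhibitor of complex II) or with 1 µM AntimycinA, an inhibitor of complex III, with 3 libraries in each group. The labels name neither the allele and Cre driver of the knockout nor the make-up of the chimeras, nor how long the inhibitors acted. They do not say whether replicates are separate mice or cultures, so the p-values rest on library-to-library spread that could be technical in origin.

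Complex I passes electrons from NADH to ubiquinone and pumps protons across the inner mitochondrial membrane. Its matrix arm holds the flavin and the chain of iron-sulfur clusters, its membrane arm holds the proton pumps, and the pumps themselves are built from subunits that mitochondrial DNA encodes (mt-Nd genes). Nuclear DNA encodes the other subunits and the assembly factors, which join modules but are absent from the finished enzyme, so a working complex needs mRNAs from both genomes. In T cells, respiration through complexes I and III keeps NAD+ available and feeds the proton gradient. The 45 members comprised 7 core subunits (among them Ndufs1, Ndufs3, Ndufs7 and Ndufv2), 9 accessory subunits of the matrix arm (Ndufa2, Ndufa5, Ndufa6, Ndufa7, Ndufa9, Ndufa12, Ndufs4, Ndufs6 and Ndufv3), and 19 accessory subunits of the membrane arm. The last were Ndufa1, Ndufa3, Ndufa8, Ndufa10, Ndufa11, Ndufa13, Ndufb2 to Ndufb11, Ndufc1, Ndufc2 and Ndufs5. The other members were the 8 assembly factors Ndufaf1 to Ndufaf8, Ndufab1, the mitochondrial acyl carrier protein, and Ndufa4, a subunit now placed in complex IV.

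Promoter sequence from RefSeq (build GRCm38.p6) was at hand for 40 of the 45 members, as the 250 bases before an annotated start. The NRF1 motif GCGCATGCG, searched on both strands, occurred before the start of 3 of the 40 genes (7.5%), Ndufa8, Ndufa11 and Ndufaf4, and in 1.45% of all 32851 promoters. The ETS/GABPA motif CCGGAAGT (2.88% of all promoters), the YY1 motif AAGATGGCG (0.606%) and the ATF4 motif TGATGNAAN (3.44%) occurred before none of the 40. The ERR motif TNAAGGTCA occurred in Ndufb4 (1.14% of all promoters), and the E-box CACGTG in Ndufa7 and Ndufv1 (2 of 40 genes, 6.02% of all promoters). These matches describe letters in these windows and show no binding. A pair of promoters with the NRF1 motif is printed to show how far from the start it lies, with that of Ndufb8, whose mRNA gave the steadiest change below. The letters read 5′ to 3′ on the strand of the gene, and the capitals mark the NRF1 motif on either strand.
Ndufa11 (chr17:56717512-56717761, plus strand): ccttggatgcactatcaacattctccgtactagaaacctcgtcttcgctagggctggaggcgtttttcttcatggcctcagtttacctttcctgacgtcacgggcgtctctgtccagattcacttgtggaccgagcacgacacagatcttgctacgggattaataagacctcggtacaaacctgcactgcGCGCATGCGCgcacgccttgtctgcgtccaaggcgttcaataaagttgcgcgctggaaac
Ndufaf4 (chr4:24897833-24898082, plus strand): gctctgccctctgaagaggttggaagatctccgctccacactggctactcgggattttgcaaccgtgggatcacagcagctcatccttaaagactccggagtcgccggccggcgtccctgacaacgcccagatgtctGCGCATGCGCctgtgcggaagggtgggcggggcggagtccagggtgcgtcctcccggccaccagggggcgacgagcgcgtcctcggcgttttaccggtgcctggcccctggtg
Ndufb8 (chr19:44555443-44555692, minus strand, no match): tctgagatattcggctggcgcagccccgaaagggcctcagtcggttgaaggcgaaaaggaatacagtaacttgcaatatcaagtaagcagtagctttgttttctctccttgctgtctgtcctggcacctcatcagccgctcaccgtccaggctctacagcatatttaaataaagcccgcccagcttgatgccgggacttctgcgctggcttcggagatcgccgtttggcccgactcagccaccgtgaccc
In Ndufa11 the motif began 60 bases and in Ndufaf4 113 bases before the start, and in both it ran into its own reverse complement 1 base on. Neither gene passed the threshold in any of the 9 comparisons.

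Libraries held 28446051 to 50769961 counts in mice aged 3 weeks, 20437386 to 31019835 in chimeras and 2707199 to 3445930 in vitro, so the in vitro values carry the widest errors. The 6 members named below as passing the threshold are protein-coding genes, placed by the tables on mm10. Ndufa6 (ENSMUSG00000022450) lies at chr15:82350139-82354291, Ndufa12 (ENSMUSG00000020022) at chr10:94198955-94221443, Ndufa5 (ENSMUSG00000023089) at chr6:24518666-24528013, Ndufb3 (ENSMUSG00000026032) at chr1:58586384-58595964, Ndufb7 (ENSMUSG00000033938) at chr8:83566671-83571626 and Ndufb8 (ENSMUSG00000025204) at chr19:44548572-44555440. The 3-week libraries were made with another kit than the rest, so differences in level are tested only within a table, and levels of different tables are set side by side without a test. The targeted gene Uqcrfs1 read 5.20 to 7.28 CPM in RISP_KO against 151 to 189 CPM in RISP_WT. The chimeras read 72.7 to 87.7 CPM without and 4.83 to 11.3 CPM with the knockout. All 7 markers of T and Treg cells were detected in every library, with Foxp3 lowest, at 25.1 to 38.2 CPM, in the 3-week libraries, against 385 to 512 CPM in the chimeras. The 4 RISP_Chimera_KO libraries differed in markers of macrophages, which summed to 73.6 and 87.0 CPM in replicates 2 and 4 and to 30.45 and 31.2 CPM in replicates 1 and 3. Their 4 controls ran from 24.6 to 56.8 CPM.

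By median the assembly factors stood below the other role groups, while the ranges of the core, matrix arm and membrane arm groups overlapped. In control cells of mice aged 3 weeks (RISP_WT), the level per kilobase of the longest principal transcript had a median of 124 CPM per kb over the core subunits, 126 over the matrix arm, 152 over the membrane arm and 17.8 over the assembly factors. The same order of assembly factors below subunits held in RISP_Chimera_WT, with medians of 8.63 CPM per kb for assembly factors and 44.3 for core subunits, and in untreated cells in vitro, with 14.6 and 68.9. The highest in RISP_WT were Ndufa1 of the membrane arm at 444 ± 30.9 CPM per kb (SD, n = 4), Ndufa4 at 440.0 ± 29.4 and Ndufa3 at 414 ± 35.9. The SDs of these 3 overlapped, but they were read in the same libraries and were not tested against each other. The lowest were Ndufaf5, which hydroxylates an arginine of Ndufs7, at 12.6 ± 1.56 CPM per kb, Ndufaf6 at 8.88 ± 0.506 and Ndufaf4 at 6.98 ± 0.788. In RISP_Chimera_WT the highest were Ndufa4 at 123 ± 9.55, Ndufa6 at 118 ± 5.44 and Ndufa3 at 113 ± 16.6 CPM per kb, and the lowest were Ndufaf4 at 7.22 ± 0.587, Ndufaf6 at 4.62 ± 0.936 and Ndufb2 at 3.64 ± 0.0491. In untreated cells in vitro, Ndufa4 led with 229 ± 48.9 CPM per kb (SD, n = 3), before Ndufb7 with 138 ± 16.8 and Ndufb8 with 125 ± 20.8, and Ndufaf3 with 10.5 ± 1.60, Ndufb2 with 7.22 ± 2.14 and Ndufb4 with 6.61 ± 0.437 came last. The lengths matter here: with the gene lengths listed in the tables instead, Ndufa3 moved from rank 3 to rank 13 in RISP_WT and to rank 15 in RISP_Chimera_WT, and Ndufb7 and Ndufb8 in vitro moved from ranks 2 and 3 to ranks 22 and 28. Ndufa4 ranked first of the 45 in all 3 control groups by those lengths. By the same lengths the core subunit Ndufs1 ranked 41 in RISP_WT, below the assembly factors Ndufaf2 at rank 33 and Ndufaf8 at rank 34. A long transcript also lowers the level per kilobase, at 4371 bases for Ndufb2 and 3632 for Ndufaf4. By CPM alone Ndufb2 read 0.386 of the median member in RISP_Chimera_WT and 0.568 in untreated cells in vitro. Ndufaf4 read 0.637 and 0.819, and Ndufaf6 0.122 and 0.211.

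Ndufb4 and Ndufs5, both of the membrane arm, stood lower in vitro than their place elsewhere. Ndufb4 read 43.9 to 52.8 CPM in RISP_WT, 14.9 to 21.1 CPM in RISP_Chimera_WT and 6.17 to 6.91 CPM in untreated cells in vitro. By CPM per kb it ranked 35, 33 and 45 of 45 in these groups. Ndufs5 read 58.7 to 67.4, 19.2 to 25.25 and 7.64 to 16.6 CPM, and ranked 25, 29 and 36. Outside the members, Atp5l of complex V read 56.7 to 71.5 CPM in RISP_WT, 36.4 to 51.75 in RISP_Chimera_WT and 0 to 1.18 in untreated cells in vitro. The tables were not tested against each other, since age, culture and, for the 3-week cells, kit differ between them. Whether reads of these genes were counted alike in the 3 tables was not tested either.

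Loss of RISP moved few nuclear complex I mRNAs past the threshold, and most estimates were small. All 45 members passed the filter on low counts in every comparison. In RISP_KO, 1 of 45 members rose, Ndufa6, and none fell, by edgeR's quasi-likelihood test with Benjamini-Hochberg adjustment at an adjusted p under 0.05. Over all 13832 genes tested in this comparison 4.78% were called higher and 5.08% lower. At an unadjusted p under 0.05, 8 members were higher (12.6% of all genes) and 0 lower (12.9%). DESeq2 called 4 higher and 0 lower at its adjusted threshold. The median log2 fold change was 0.12 over the members against 0.00444 over all genes, and 39 of 45 estimates lay above 0. Nuclear subunits of complexes II, III (without Uqcrfs1), IV and V had medians of -0.05, 0.04, 0.11 and 0.11, and mitochondrial ribosomal proteins 0.09. For 43 of 45 members the 95% interval stayed within a 1.5-fold change in either direction. In the chimeras 0 of 45 members were called higher (0.167% of all 14399 genes) and 0 lower (0.542% of all genes), by edgeR and by DESeq2. At an unadjusted p under 0.05, 11 members were lower (6.81% of all genes) and 0 higher (6.1%) by edgeR, and DESeq2 had 8 members. The median was -0.14 over the members against 0.00036 over all genes, 39 of 45 estimates lay below 0, and the interval stayed within 1.5-fold for 41 of 45. The same other lists, in that order, had chimera medians of -0.01, -0.15, -0.13, -0.14 and -0.11.

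**Figure D1:**
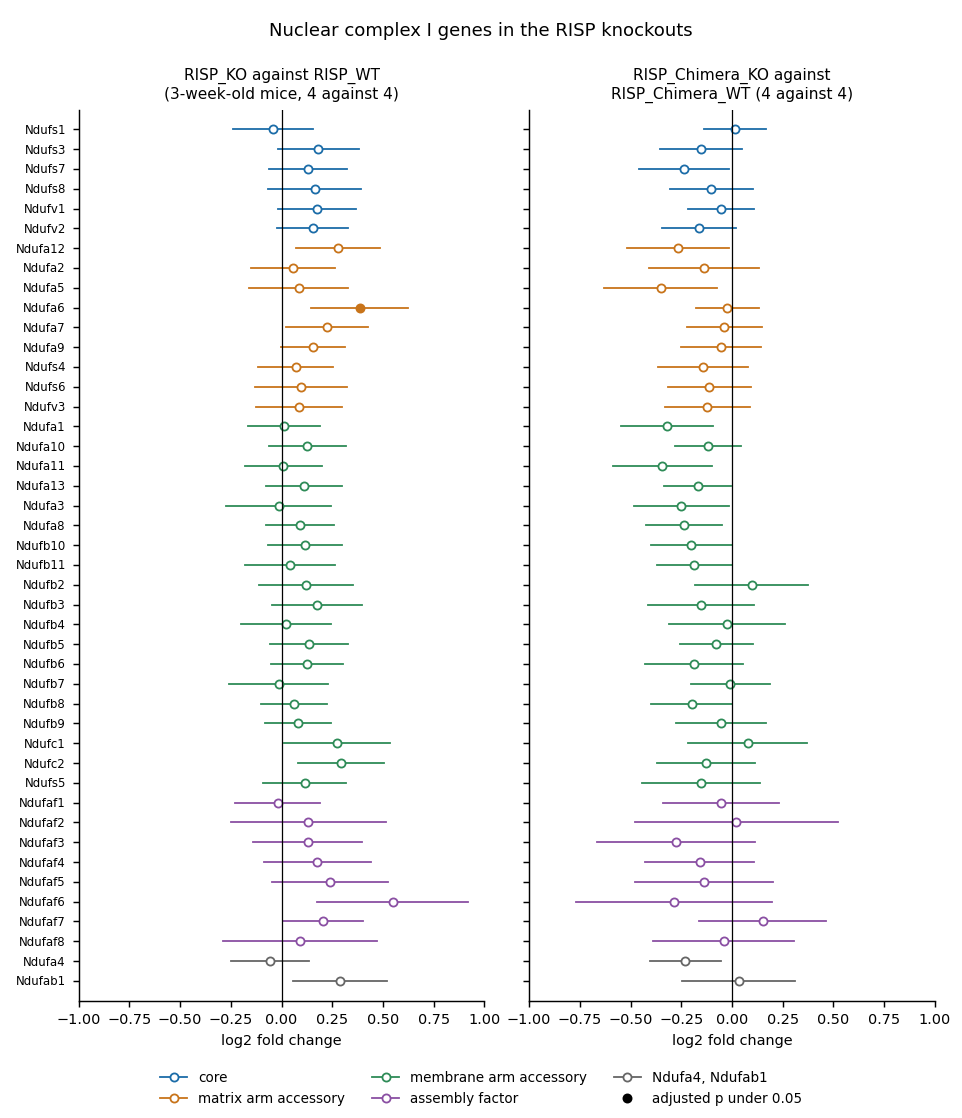
Log2 fold change of 44 of the 45 nuclear complex I genes in RISP_KO against RISP_WT (left) and RISP_Chimera_KO against RISP_Chimera_WT (right), 4 libraries a group, with bars for the 95% interval and colours for the role; filled points passed an adjusted p under 0.05. Ndufa6 on the left is the 1 filled point, and most points lie right of 0 on the left and left of 0 on the right.

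None of the 7 core subunits was called in either knockout, and all 7 intervals stayed within 1.5-fold in both. Ndufs3 of the quinone module read 86.0, 79.9, 81.8 and 83.2 CPM in RISP_WT and 102, 101, 92.6 and 80.3 CPM in RISP_KO. Replicates 1 to 3 of RISP_KO lay above all controls and replicate 4 among them, and the log2 fold change, with its SE, was 0.18 ± 0.09 (adjusted p = 0.24), the most positive of the core subunits. Ndufs1, the largest of them, was the most negative, at -0.04 ± 0.09 (adjusted p = 0.814). In the chimeras Ndufs7, the subunit next to the quinone site, was the most negative at -0.24 ± 0.10 (adjusted p = 0.355), with 54.1, 46.9, 50.3 and 41.1 CPM in RISP_Chimera_WT and 41.1, 38.7, 46.4 and 37.2 CPM in RISP_Chimera_KO. Its groups overlapped. Ndufs1 was the most positive, at 0.02 ± 0.07 (adjusted p = 0.956).

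Among the 9 accessory subunits of the matrix arm, Ndufa6, which binds the acyl carrier protein Ndufab1, read 113, 99.6, 123 and 130.5 CPM in RISP_WT and 155, 162, 164 and 128 CPM in RISP_KO. Replicates 1 to 3 of RISP_KO lay above every control, and replicate 4 lay below control replicate 4. The log2 fold change, with its SE, was 0.38 ± 0.11 (adjusted p = 0.0485). The call was lost in 10 of 16 alternatives run, among them upper quartile factors, library size only, no filter on low counts, and leaving out RISP_WT replicate 1, 2 or 3 or RISP_KO replicate 1, 2 or 3, with log2 fold changes of 0.31 to 0.46 over all 16. Without RISP_KO replicate 4, whose median over the members was the lowest of the 4, 5 members were called higher, Ndufa6, Ndufa7, Ndufc1, Ndufc2 and Ndufab1. In the chimeras Ndufa6 was the most positive of the matrix arm, at -0.02 ± 0.07 (adjusted p = 0.933). There Ndufa5 of the quinone module was the most negative of all members at -0.35 ± 0.13 (adjusted p = 0.273), with 27.3, 31.8, 30.4 and 24.25 CPM in RISP_Chimera_WT and 20.7, 21.1, 27.4 and 20.0 CPM in RISP_Chimera_KO. Its replicate 3 read as high as the controls and the other 3 knockout libraries lay below them. The least positive of the matrix arm in RISP_KO was Ndufa2 at 0.06 ± 0.09 (adjusted p = 0.756).

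None of the 19 membrane arm subunits was called in either knockout. In RISP_KO the estimates ran from -0.01 ± 0.11 for Ndufb7 (adjusted p = 0.951), on the intermembrane side of the arm, to 0.29 ± 0.10 for Ndufc2 (adjusted p = 0.0832). Ndufc2 read 97.8, 91.1, 100.1 and 110.3 CPM in RISP_WT and 132, 132, 121 and 105 CPM in RISP_KO, where replicate 4 again lay among the controls. In the chimeras Ndufa11 was the most negative at -0.34 ± 0.11 (adjusted p = 0.217), with 32.0, 29.4, 28.7 and 25.5 CPM in RISP_Chimera_WT against 21.2, 22.6, 26.5 and 20.8 CPM. The groups overlapped through knockout replicate 3 and control replicate 4. Ndufb2 was the most positive at 0.10 ± 0.13 (adjusted p = 0.81).

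None of the 8 assembly factors was called. Ndufaf6, which is needed early in assembly and was among the least abundant members, had the largest estimate of all in RISP_KO, 0.55 ± 0.17 (adjusted p = 0.0687). It read 8.82, 10.1, 9.73 and 9.81 CPM in RISP_WT and 17.3, 15.6, 10.7 and 12.6 CPM in RISP_KO, and the groups did not overlap. DESeq2 called it (adjusted p = 0.0131), as did edgeR without RISP_KO replicate 3 (adjusted p = 0.0357). In the chimeras its estimate was the most negative of the assembly factors, -0.29 ± 0.22 (adjusted p = 0.638), and Ndufaf7, an arginine methyltransferase, had the most positive of all members, 0.15 ± 0.14 (adjusted p = 0.713). Ndufaf1, of the complex that builds the membrane arm around mt-Nd2, was the most negative in RISP_KO at -0.02 ± 0.10 (adjusted p = 0.923). Outside these groups, Ndufab1 had 0.29 ± 0.10 in RISP_KO (adjusted p = 0.111) and 0.03 ± 0.13 in the chimeras (adjusted p = 0.945), and Ndufa4 had -0.06 ± 0.09 (adjusted p = 0.735) and -0.23 ± 0.08 (adjusted p = 0.249).

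The effect of the knockout lay lower in chimeras than in 3-week-old mice for 44 of 45 members. The difference of the 2 log2 fold changes had a median of -0.27 over the members against -0.01 over all 15580 genes of a joint fit of 16 libraries. Similar medians were seen over nuclear subunits of complexes III (-0.22), IV (-0.28) and V (-0.26) and mitochondrial ribosomal proteins (-0.23), but not complex II (-0.04). The shift was therefore not particular to complex I. The difference itself passed the threshold in 1 of 45 members, Ndufa12, against 3.27% of all genes in either direction. At an unadjusted p under 0.05, 17 members were lower (9.25% of all genes) and 0 higher (7.43%). Ndufa12, which takes the place of its paralog Ndufaf2 at the end of assembly, read 82.8, 76.0, 84.9 and 87.9 CPM in RISP_WT and 116, 99.1, 97.4 and 90.4 CPM in RISP_KO, so that every knockout library lay above every control. In RISP_Chimera_WT it read 21.8, 17.3, 21.0 and 18.9 CPM and in RISP_Chimera_KO 15.8, 15.6, 17.3 and 17.0 CPM, with the lowest control and the highest knockout library both at 17.3 CPM. Each effect alone missed the threshold, at 0.28 ± 0.09 in RISP_KO (adjusted p = 0.0873) and -0.27 ± 0.12 in the chimeras (adjusted p = 0.359). The difference was -0.56 ± 0.13 (SE, adjusted p = 0.027). It missed the threshold in 11 of 24 alternatives run, among them upper quartile factors, library size only and no filter on low counts. The libraries whose removal ended the call were RISP_WT replicate 1, 2 or 3, RISP_Chimera_WT replicate 1 or 3 and RISP_Chimera_KO replicate 1 or 2. The difference ran from -0.61 to -0.49 over all 24. Without RISP_KO replicate 4 it was joined by Ndufa6, at -0.50 (adjusted p = 0.0316). Age, kit and chimerism differ together between the 2 settings and cannot be told apart.

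**Figure D2:**
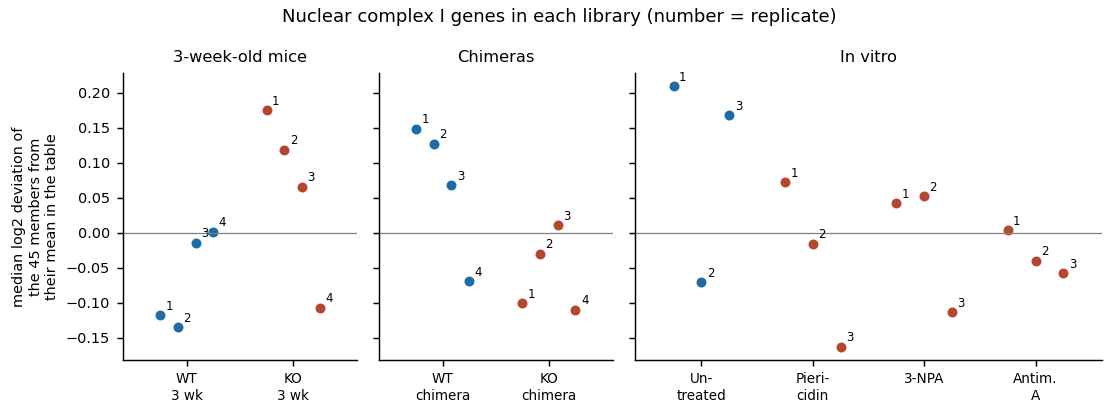
Median over the 45 nuclear complex I genes of each library's log2 CPM minus the gene's mean in its table, with blue for control and red for knockout or treated libraries. RISP_KO replicate 4 sits at -0.11, apart from the other 3 at 0.07 to 0.17, RISP_Chimera_WT replicate 4 at -0.07, below the other 3 at 0.07 to 0.15, and untreated replicate 2 at -0.07 against 0.17 and 0.21.

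Single libraries stood apart within these small shifts, as the plot of library medians shows. The 45 members together took 0.5 to 0.545% of the counts in RISP_WT and 0.489 to 0.61% in RISP_KO, where replicate 4 was the lowest of all 8. They took 0.175 to 0.2% in RISP_Chimera_WT and 0.17 to 0.18% in RISP_Chimera_KO. Other cells' markers moved beside the members in RISP_KO. Of the 10 macrophage markers, 8 were tested and 4 fell, and their sum was 6.30 to 12.0 CPM in RISP_KO against 16.04 to 49.8 CPM in RISP_WT. Fcgr1 was at 0 in all 4 RISP_KO libraries, but read only 0.0271 to 0.165 CPM in RISP_WT. Of the B cell markers 1 of 4 fell (42.9 to 55.1 CPM summed in RISP_WT, 21.2 to 28.1 in RISP_KO) and of the dendritic cell markers 1 of 3. Of the NK cell markers 1 of 2, Gzma, rose, and the other estimate was -0.43. Ncr1 and Klre1 were at 0 in all 4 RISP_KO libraries, but reached only 0.336 and 0.156 CPM in RISP_WT. Of the plasma cell markers 1 of 3, Xbp1, rose, from 187 to 247 CPM in RISP_WT to 357 to 435 CPM. It was the only positive estimate of the 3, whose median was -0.28 and lowest -0.64. Jchain, Mzb1 and Sdc1 read at most 1.89 CPM in either group. Red cell markers summed to 0.406 to 85.5 CPM in RISP_WT and to 1.96 to 221 CPM in RISP_KO, with none of 4 called. Among the 7 T and Treg cell markers 1 was called higher in RISP_KO and 0 lower. In the chimeras none of 8 macrophage markers was called, and without RISP_Chimera_KO replicates 2 and 4 the median of the members was -0.12 with 0 called. The part of these cells in the members' values was not tested. In bulk RNA, fewer cells of a type and less RNA per cell cannot be told apart.

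With inhibitors in vitro, the few members that passed the threshold all fell. Piericidin, which blocks complex I itself, lowered 2 of 45 members, Ndufb3 and Ndufb8, while 7.93% of all 11689 genes fell. It raised 0 members, with 5.62% of all genes called higher. 3-NPA lowered 1, Ndufa5 (1.87% of all genes), and raised 0 (1.35%). AntimycinA lowered 2, Ndufa5 and Ndufb7 (8.5% of all genes), and raised 0 (6.5%). At an unadjusted p under 0.05, piericidin had 1 member higher (12.2% of all genes) and 8 lower (13.5%), 3-NPA 0 higher (7.4%) and 4 lower (9.02%), and AntimycinA 0 higher (12.8%) and 7 lower (14.2%). DESeq2 called no member higher with any inhibitor. The medians over the members were -0.14, -0.09 and -0.12, against 0.01, -0.00579 and 0.02 over all genes, and 37, 29 and 35 of 45 estimates lay below 0. With piericidin, nuclear subunits of complexes II, III, IV and V had medians of -0.26, -0.30, -0.33 and -0.31, and mitochondrial ribosomal proteins -0.31. In that order the medians were -0.12, -0.15, -0.08, -0.19 and -0.16 with 3-NPA. With AntimycinA they were -0.07, -0.17, -0.19, -0.28 and -0.24. The interval stayed within 1.5-fold for 24, 27 and 26 of 45 members, fewer than in the knockouts. The 3 comparisons share the untreated libraries, so a low or high untreated library moves all of them. Macrophage markers summed to 15.3 to 23.7 CPM over all 12 in vitro libraries, and each treated group overlapped the untreated one. The largest part of that sum was Csf1r, at 8.97 to 19.9 CPM, while C1qb, C1qc and Fcgr1 were at 0 in all 12. Plasma cell markers, nearly all Xbp1, summed to 188 to 192 CPM untreated and lay lower with 3-NPA (145 to 177 CPM) and AntimycinA (144 to 181.5 CPM), without overlap. B cell markers summed to 4.41 to 8.12 CPM untreated and to 8.91 to 9.72 CPM with 3-NPA, also without overlap. No marker tested was called in these lists of other cells, and their part in the members' values was not tested. Of the 7 T and Treg cell markers, 2 were called higher and 0 lower with piericidin. With AntimycinA 3 were called higher and 1 lower, and with 3-NPA 0 in either direction. Foxp3 read 531 to 574 CPM untreated and 742 to 824 CPM with piericidin.

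**Figure D3:**
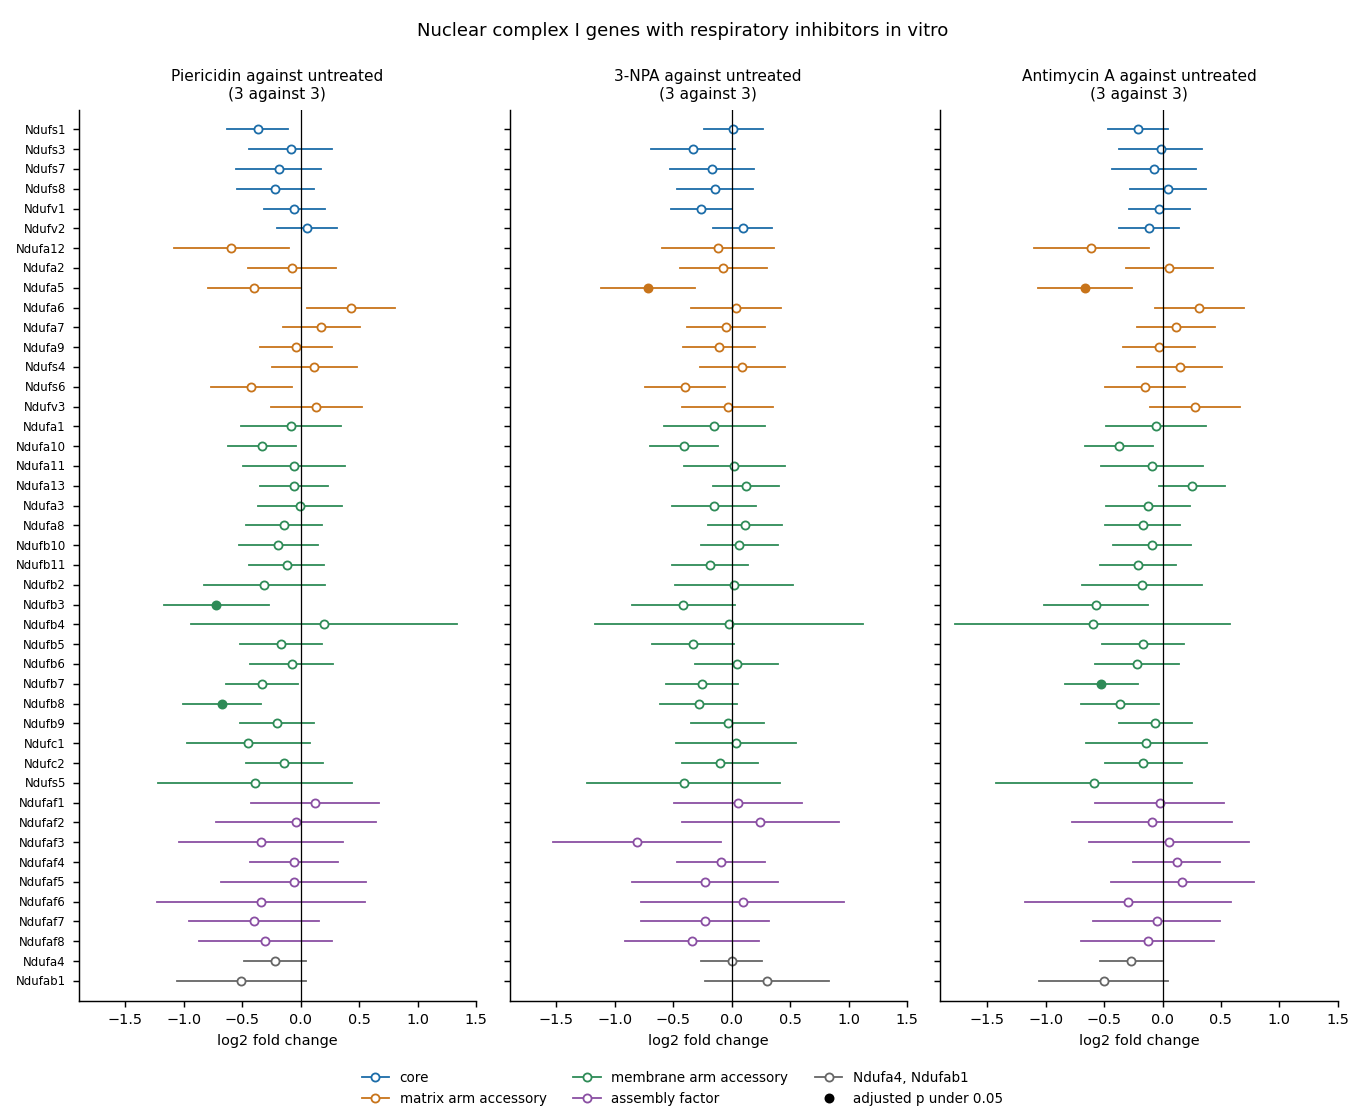
Log2 fold change of 44 of the 45 nuclear complex I genes with piericidin, 3-NPA and AntimycinA against untreated cells, 3 libraries a group, with bars for the 95% interval, colours for the role and filled points for an adjusted p under 0.05. The 5 filled points all lie left of 0 (Ndufb3 and Ndufb8, Ndufa5, Ndufa5 and Ndufb7), and the widest bars belong to low genes such as Ndufb4, Ndufs5 and the assembly factors.

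None of the 7 core subunits was called with any of the 3 inhibitors. With piericidin Ndufs1 came nearest, at 103, 123 and 112 CPM untreated against 86.1, 92.8 and 83.0 CPM. All 3 treated libraries lay below all 3 untreated ones, and the log2 fold change, with its SE, was -0.37 ± 0.13 (adjusted p = 0.051). DESeq2 called it (adjusted p = 0.04). The most positive was Ndufv2 of the NADH-binding module with piericidin, at 0.06 ± 0.13 (adjusted p = 0.84), and with 3-NPA, at 0.09 ± 0.13 (adjusted p = 0.778). With 3-NPA the most negative was Ndufs3 at -0.33 ± 0.18 (adjusted p = 0.355), and with AntimycinA the range ran from -0.21 ± 0.13 for Ndufs1 (adjusted p = 0.311) to 0.05 ± 0.16 for Ndufs8 (adjusted p = 0.897).

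In the matrix arm Ndufa5 read 58.5, 49.7 and 56.3 CPM untreated, 51.4, 33.1 and 40.1 CPM with piericidin, 37.7, 28.1 and 34.0 CPM with 3-NPA, and 37.3, 28.4 and 38.4 CPM with AntimycinA. Every library with 3-NPA or AntimycinA lay below every untreated one, and with piericidin 1 of 3 lay among them. The log2 fold change was -0.72 ± 0.20 with 3-NPA (SE, adjusted p = 0.0343), -0.66 ± 0.20 with AntimycinA (adjusted p = 0.0166) and -0.40 ± 0.20 with piericidin (adjusted p = 0.187). The call with 3-NPA was lost without untreated replicate 1 or 3 and without 3-NPA replicate 2 or 3, and that with AntimycinA without untreated replicate 1 or AntimycinA replicate 2. Between inhibitors Ndufa5 did not pass: AntimycinA against piericidin gave -0.26, with a 95% interval of -0.67 to 0.14 (adjusted p = 0.733). Ndufa12 read 30.2, 35.9 and 51.5 CPM untreated, 38.8, 20.7 and 18.7 CPM with piericidin and 26.9, 26.3 and 23.5 CPM with AntimycinA, where all 3 lay below the untreated libraries. Its log2 fold changes were -0.59 ± 0.24 (adjusted p = 0.105) and -0.61 ± 0.24 (adjusted p = 0.0856), and without piericidin replicate 1 the first became -0.99 (adjusted p = 0.00728). Ndufa6 was the most positive of the matrix arm with piericidin, at 0.43 ± 0.19 (adjusted p = 0.132), and with AntimycinA, at 0.32 ± 0.19 (adjusted p = 0.287), and Ndufs4, which stabilises the NADH-binding module, with 3-NPA, at 0.09 ± 0.18 (adjusted p = 0.863). Without untreated replicate 1, its highest untreated library, Ndufa6 was called higher with piericidin (0.65, adjusted p = 0.036).

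In the membrane arm Ndufb8 gave the steadiest call. It read 95.2, 68.8 and 90.9 CPM untreated and 63.2, 47.0 and 49.6 CPM with piericidin, so that no treated library reached an untreated one. The log2 fold change, with its SE, was -0.67 ± 0.17 (adjusted p = 0.00442), and it passed the threshold in all 15 alternatives run, at -0.81 to -0.58. With 3-NPA it was -0.28 ± 0.16 (adjusted p = 0.401) and with AntimycinA -0.36 ± 0.16 (adjusted p = 0.137). The difference between AntimycinA and piericidin was 0.31, with an interval of -0.03 to 0.65 (adjusted p = 0.549), so the fall was not shown to differ between these inhibitors.

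Ndufb3 and Ndufb7 sit with Ndufb8 in the distal end of the arm. Ndufb3 read 68.6, 39.4 and 45.3 CPM untreated, 27.0, 32.8 and 32.8 CPM with piericidin, 32.2, 49.1 and 34.0 CPM with 3-NPA and 44.1, 30.7 and 28.3 CPM with AntimycinA. All piericidin libraries lay below the untreated ones, of which replicate 1 stood far above the other 2. The log2 fold change with piericidin was -0.72 ± 0.22 (SE, adjusted p = 0.0236), and it was lost without untreated replicate 1 (-0.45, adjusted p = 0.274) and without piericidin replicate 1 or 3. With 3-NPA Ndufb3 was the most negative of the arm at -0.41 ± 0.22 (adjusted p = 0.343). Ndufb7 read 96.2, 75.3 and 86.4 CPM untreated, 68.8, 72.4 and 63.7 CPM with piericidin, and 52.0, 56.2 and 71.2 CPM with AntimycinA. Both sets of treated libraries lay below all untreated ones, and the log2 fold change was -0.52 ± 0.15 with AntimycinA (SE, adjusted p = 0.0153) and -0.33 ± 0.15 with piericidin (adjusted p = 0.16). The AntimycinA call was lost without untreated replicate 1 and without AntimycinA replicate 1 or 2. The most positive of the arm were Ndufb4 with piericidin, at 0.20 ± 0.56 (adjusted p = 0.876), at 4.29 to 10.5 CPM over the treated libraries, and Ndufa13 with 3-NPA, at 0.12 ± 0.14 (adjusted p = 0.733), and with AntimycinA, at 0.25 ± 0.14 (adjusted p = 0.245). With AntimycinA Ndufb4 was also the most negative, at -0.60 ± 0.58 (adjusted p = 0.561). Without AntimycinA replicate 1 or untreated replicate 2, Ndufb3 was called lower with AntimycinA as well (-0.80, adjusted p = 0.0252, and -0.73, adjusted p = 0.0337). Ndufa10 was called lower with 3-NPA without 3-NPA replicate 1 (-0.56, adjusted p = 0.0473) and with AntimycinA without untreated replicate 1 (-0.47, adjusted p = 0.0489).

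**Figure D4:**
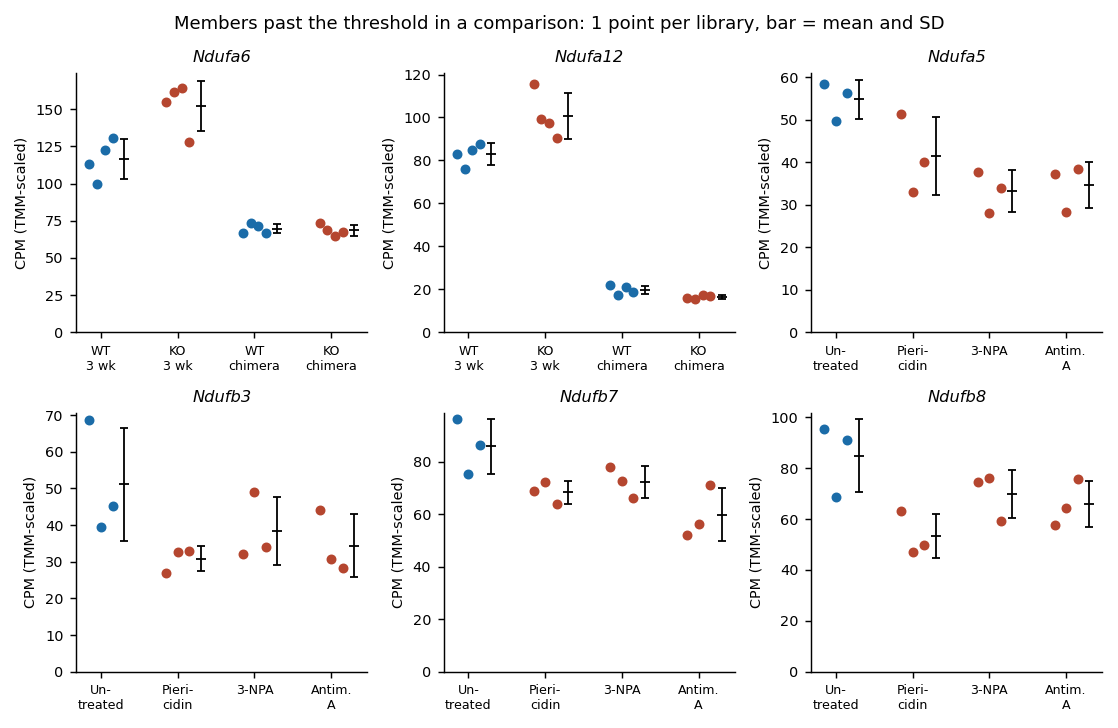
CPM per library (scaled by TMM factors) of the 6 members that passed the threshold in a comparison, with a bar for the mean and SD, blue for control and red for knockout or treated libraries; Ndufa6 and Ndufa12 are shown in the knockout groups and the other 4 in vitro. Ndufb8 with piericidin lies between 47.0 and 63.2 CPM, below the untreated 68.8 to 95.2 CPM, while for Ndufa6 RISP_KO replicate 4 falls back to 128 CPM among the controls.

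The assembly factors gave no call with any inhibitor, and at their low levels few intervals stayed within 1.5-fold (1, 1 and 2 of 8). Ndufaf3, which works with Ndufaf4 on the quinone module, read 17.9, 15.9 and 13.1 CPM untreated and 8.22, 11.8 and 6.86 CPM with 3-NPA. The groups did not overlap, but the log2 fold change of -0.81 ± 0.35 missed the threshold (SE, adjusted p = 0.23). The other extremes of the group were Ndufaf7 with piericidin at -0.40 ± 0.27 (adjusted p = 0.389) and Ndufaf6 with AntimycinA at -0.30 ± 0.44 (adjusted p = 0.722) on the low side. On the high side they were Ndufaf1 with piericidin at 0.12 ± 0.27 (adjusted p = 0.833), Ndufaf2 with 3-NPA at 0.24 ± 0.33 (adjusted p = 0.782) and Ndufaf5 with AntimycinA at 0.17 ± 0.30 (adjusted p = 0.781).

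The acyl carrier protein Ndufab1, which also serves mitochondrial fatty acid and iron-sulfur synthesis, was the member in which the inhibitors came nearest to differing. It read 43.2, 26.2 and 40.4 CPM untreated, 28.8, 12.7 and 34.9 CPM with piericidin, 44.5, 50.6 and 40.3 CPM with 3-NPA, and 34.8, 15.2 and 28.0 CPM with AntimycinA. Every 3-NPA library lay above every library of the other 2 inhibitors. The log2 difference was -0.81 ± 0.27 for piericidin against 3-NPA, with a 95% interval of -1.36 to -0.27 (adjusted p = 0.0786), and -0.81 ± 0.27 for AntimycinA against 3-NPA, with an interval of -1.35 to -0.26 (adjusted p = 0.0838). With no filter on low counts both passed the threshold (adjusted p = 0.0242 and 0.0264). The first also passed without piericidin replicate 3 (-1.12, adjusted p = 0.0439) and the second without AntimycinA replicate 1 (-1.10, adjusted p = 0.033). Against untreated cells Ndufab1 had -0.51 ± 0.27 with piericidin (adjusted p = 0.239), 0.30 ± 0.26 with 3-NPA (adjusted p = 0.617) and -0.50 ± 0.27 with AntimycinA (adjusted p = 0.233), and Ndufa4 had -0.22 ± 0.13, 0.00125 ± 0.13 and -0.27 ± 0.13 (adjusted p = 0.296, 0.998 and 0.179). Over the 3 pairs of inhibitors 0 of 45 members passed in edgeR or in DESeq2. For AntimycinA against piericidin 0.736% of all genes were called in either direction, for AntimycinA against 3-NPA 3.98%, and for piericidin against 3-NPA 4.29%. At an unadjusted p under 0.05 in either direction there were 1, 3 and 4 members, against 10.5%, 16.7% and 17.7% of all genes. The intervals stayed within 1.5-fold for 28, 23 and 25 of 45.

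The subunits of complex I that mitochondrial DNA encodes were measured in the same libraries. Of the 7 mt-Nd genes of mitochondrial DNA, 6 were tested in mice aged 3 weeks, 7 in chimeras and 5 in vitro. In RISP_KO 5 of 6 fell, with a median log2 fold change of -0.60, and in the chimeras edgeR called 0 of 7, with a median of -0.73 and 5 at an unadjusted p under 0.05. With piericidin 2 of 5 fell, with a median of -0.21, and with 3-NPA and AntimycinA all 5 fell, with medians of -1.92 and -1.95. Over all genes 5.08% fell in RISP_KO, 7.93% with piericidin, 1.87% with 3-NPA and 8.5% with AntimycinA. mt-Nd4, a proton-pumping subunit of the membrane arm, read 919, 866 and 935 CPM untreated, 737, 492 and 695 CPM with piericidin, 244, 171 and 181 CPM with 3-NPA and 74.3, 136 and 168 CPM with AntimycinA. Its log2 fold change was -0.50 ± 0.14 with piericidin (SE, adjusted p = 0.0136), -2.19 ± 0.15 with 3-NPA (adjusted p = 6.22e-14) and -2.85 ± 0.16 with AntimycinA (adjusted p = 5.36e-17). The members took 0.243 to 0.273% of the counts in untreated libraries and 0.243 to 0.25% with AntimycinA. The mt-Nd genes took 0.676 to 0.772% and 0.214 to 0.307%. The nuclear and the mitochondrial genes were not tested against each other as lists.

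**Figure D5:**
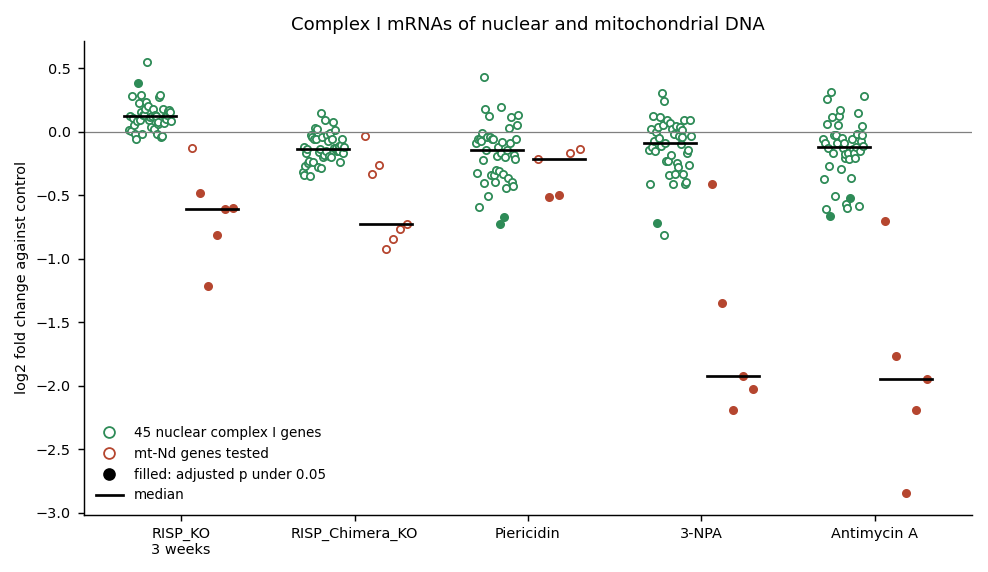
Log2 fold change of the 45 nuclear complex I genes (green) and the tested mt-Nd genes (red) in 5 comparisons with a control, with filled points for an adjusted p under 0.05 and a black line at the median of each set. The green medians stay between -0.14 and 0.12 in all 5, while the red medians reach -1.92 with 3-NPA and -1.95 with AntimycinA.

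Of 11 other assembly factors of complex I tested, 1 fell in RISP_KO, Tmem126a of the mt-Nd4 module, at -0.43 ± 0.08 (SE, adjusted p = 0.00891), and 0 of 11 were called in the chimeras. With piericidin Tmem126a was again the 1 called, at -0.77 ± 0.25 (adjusted p = 0.0331), and with 3-NPA and AntimycinA 0 of 11 were called. Chchd4, which with Aifm1 imports cysteine-rich proteins such as Ndufb7, Ndufa8 and Ndufs5 into the intermembrane space, rose in RISP_KO from 25.5, 30.5, 28.4 and 31.3 CPM to 42.5, 40.1, 36.7 and 43.7 CPM (0.49 ± 0.11, adjusted p = 0.016). Its difference of effects between the 2 knockout settings passed the threshold as well, at -0.98 ± 0.25 (adjusted p = 0.0407). Nuclear subunits of the other complexes were measured the same way. With piericidin 0 of 4 genes of complex II, 1 of 8 of complex III, 5 of 11 of complex IV and 7 of 14 of complex V fell, and 9 of 76 mitochondrial ribosomal protein genes. With AntimycinA these counts were 1, 2, 2, 4 and 9, with 1 complex IV gene called higher, and with 3-NPA 0, 0, 0, 0 and 1. In RISP_KO none of these 5 lists had a gene called lower, and their called members, 1 in complex II, 1 in complex V and 2 ribosomal proteins, were higher. Over all genes, 7.93% were called lower with piericidin, 8.5% with AntimycinA and 1.87% with 3-NPA, and 6.5% higher with AntimycinA. The shares were 4.78% higher and 5.08% lower in RISP_KO, and 0.167% and 0.542% in the chimeras.

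Of the 45 members, 9 overlap another expressed gene in the annotation, 1 of them, Ndufb2, on the same strand (with Adck2), and the strand setting of the counting is not given in the sources used here. The longest overlap on opposite strands is that of Ndufs1 with Ino80dos, 14695 bases, and that gene read 4.05 CPM in mice aged 3 weeks. Ndufa11, Ndufab1, Ndufb4 and Ndufs6 also have a pseudogene copy among the genes left out, at 0.315 CPM or less on average in every table, so their counts are less certain where reads fit both.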

How the data were processed

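RNA sequencing of 28 libraries in 8 groups was analysed from 3 count tables that the authors deposited. The values are whole-number read counts per gene. bcl2fastq, TopHat, HTSeq and edgeR, with mm10, are named per the submitters' processing notes, and their versions and the strand setting are not given in the sources used here. The 3-week knockout libraries were made with a Takara kit and the others with a NEB kit, per the labels. A further table with 11 per-sample columns that match no sample label was not used.

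The members and all gene lists were chosen with earlier results of these data known. Counts were scaled by TMM factors to CPM, filtered with filterByExpr in each table and tested by edgeR's quasi-likelihood F-test (R 4.3.3, edgeR 4.0.16, limma 3.58.1), with Benjamini-Hochberg adjustment over all genes tested and a threshold of 0.05. Each table was fitted with all its groups, and the 16 libraries of both knockout tables in 1 fit with 4 groups for the difference of effects. Log2 fold changes come with their SE and 95% interval, and a prior count of 0.125. The square root of edgeR's common dispersion over all genes tested was 21.6% in mice aged 3 weeks, 20.4% in chimeras and 14.7% in vitro. It is a coefficient of variation between replicates that leaves out counting noise, and it is not that of the members.

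Named genes were every called member, the member with the most positive and the most negative log2 fold change in each role group and comparison with a control, and the 3 highest and 3 lowest members per kilobase in each control group. Ndufa4, Ndufa4l2 and Ndufab1 were named throughout, and further genes where a changed setting or a missed threshold drew them out, after their values were seen. Levels per kilobase used the longest APPRIS principal transcript of GENCODE M21. The fits were tested on simulated data. Alternatives were DESeq2 (1.42.0), RLE and upper quartile factors, library size only, other filters, a replicate block, only the 2 groups compared, a higher minimum for members, and leaving out each library. Leaving out RISP_Chimera_KO replicates 2 and 4 together was chosen after seeing the data. A single member is counted but not reported by name or drawn singly here.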

Additional observations from a re-analysis of the deposited data

Results flagged for a closer look

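Among 180 groups of 4 libraries (45 members in 4 knockout groups), 9 held a library far from the other 3, about the 1 in 20 that chance gives. High values were 157 CPM for Ndufa10 in RISP_KO replicate 1 (others 127 to 132), 27.4 CPM for Ndufa5 in RISP_Chimera_KO replicate 3 (others 20.0 to 21.1), 29.6 CPM for Ndufaf4 in RISP_WT replicate 4 (others 23.4 to 24.3) and 55.9 CPM for Ndufb9 in RISP_Chimera_WT replicate 2 (others 42.2 to 43.3). Ndufaf5 stood out at 18.4 CPM in RISP_KO replicate 2 (others 16.9 to 17.1) and at 17.5 CPM in RISP_WT replicate 4 (others 13.6 to 14.0), and Ndufb2 at 21.0 CPM in RISP_Chimera_KO replicate 3 (others 15.5 to 15.7). Low values were 67.9 CPM for Ndufv1 in RISP_Chimera_KO replicate 1 (others 75.0 to 76.0) and 40.2 CPM for Ndufv3 in RISP_Chimera_WT replicate 4 (others 51.4 to 53.0).

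For Ndufa12 the test of the difference between the knockout effects in chimeras and in 3-week-old mice passed the threshold, at -0.563 on the log2 scale.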

How the results depend on the processing

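Medians over the members moved by less than the spread between libraries in every alternative run, from 0.07 to 0.16 in RISP_KO, -0.18 to -0.10 in the chimeras, -0.23 to -0.10 with piericidin, -0.15 to -0.02 with 3-NPA and -0.17 to -0.07 with AntimycinA. The chimeras had 0 members called in all 17 alternatives. The count of 1 member higher in RISP_KO became 4 with DESeq2 and 0 with upper quartile factors, library size only or no filter, and 0 to 5 when 1 library was left out. The count of 1 member with a lower effect in the chimeras became 2 with DESeq2, 0 with upper quartile factors, library size only or no filter, and 0 to 2 without 1 library. Leaving out 1 library gave 0 to 1 members higher and 1 to 3 lower with piericidin, 0 to 2 lower with 3-NPA and 0 to 3 lower with AntimycinA. For AntimycinA and for piericidin against 3-NPA it gave 0 to 1 lower, no filter gave 1 in each, and a fit of only the 2 groups gave 1 for AntimycinA. The cause of these changes was not tested.

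The replicate numbers were not taken to pair the libraries, since not every same-numbered pair exceeded a correlation of 0.1. Same-numbered deviations correlated at -0.04 to 0.03 in mice aged 3 weeks, -0.10 to 0.13 in chimeras and 0.00 to 0.09 in vitro. Libraries of different numbers correlated at -0.10 to 0.07, -0.12 to 0.17 and -0.08 to 0.03, so in vitro all 18 same-numbered pairs were above 0, which is a hint from the data and not from the design. With the replicate number as a block, 0 members were called higher in RISP_KO and 0 in the difference of knockout effects, and 1 was lower for each of AntimycinA and piericidin against 3-NPA. The block gave 3 members lower with piericidin, and medians of 0.11 in RISP_KO and -0.13 in the chimeras. Over all genes, scaling moved the split of calls. With 3-NPA 158 were higher and 219 lower, against 209 and 141 by library size only and 195 and 167 with upper quartile factors. For the difference of knockout effects 191 and 318 became 234 and 255, and 238 and 246. The in vitro libraries hold 2707199 to 3445930 counts, the fewest, and their intervals are the widest.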
